A study of Mus musculus with 6 samples.

Results

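Lag3 (lymphocyte activation gene 3, ENSMUSG00000030124) was followed as 1 gene of the 29872 genes measured by RNA sequencing in mouse hippocampus. It was found by its Ensembl identifier, and it was selected on its RPKM values, which stood higher after knockdown of Hepacam, the gene of the astrocyte adhesion molecule hepaCAM. Its own difference between the groups is therefore given as a description, with no test. The knockdown group (shHepaCAM, 3 libraries) came from C57BL/6J mice in which an adeno-associated virus, a gene delivery vector, was used to lower hepaCAM in the CA1 field of the hippocampus on both sides. The control libraries (shControl, 3 libraries) carry the genotype label WT. The injection is described in the same words for all 6 libraries, and what a control virus carried is not given in the labels. Neither age nor sex is given, nor the promoter behind the hairpin RNA, and whether each library is 1 mouse or a pool is not given either, so the p-values below measure the spread between libraries, which may be technical.

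LAG-3 is a membrane protein of the immunoglobulin superfamily, related in sequence and gene structure to the co-receptor CD4. On activated T cells it binds class II molecules of the major histocompatibility complex and restrains the cell's response, and it is a target of immune checkpoint therapy. Other reported ligands include FGL1, galectin-3 and LSECtin, and the proteases ADAM10 and ADAM17 cut it from the cell surface. In mouse brain its transcript has also been reported in microglia, the resident macrophages, so the gene is set here beside class II, T cell and microglia genes.

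Lag3 stood at 24.9, 27.1 and 28.2 RPKM (reads per kilobase of transcript, scaled to the depth of the library) in shHepaCAM replicates 1, 2 and 3, against 9.01, 8.37 and 7.35 RPKM in shControl replicates 1, 2 and 3. All 3 knockdown libraries lay above all 3 control libraries, and the lowest knockdown value was 2.77 times the highest control value. The means were 26.7 ± 1.67 RPKM in shHepaCAM and 8.24 ± 0.84 RPKM in shControl (SD, n = 3 each), a ratio of 3.24. As log2(RPKM + 1), a scale on which changes of low genes come out too small, the difference was 1.59, beside a pooled SD of 0.11 between replicates.

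These values rest on 831, 923 and 974 reads in the knockdown libraries and on 325, 306 and 231 reads in the control libraries. The 95% Poisson intervals, which cover counting error only, ran from 23.25 to 30.01 RPKM over the knockdown libraries and from 6.43 to 10.04 RPKM over the control libraries. Counting alone gives an SD of 0.86 to 0.90 RPKM in a knockdown library and of 0.48 to 0.50 RPKM in a control library, so the SD between replicates was somewhat under 2 times the counting SD in both groups. The coefficient of variation was 6.25% in shHepaCAM and 10.1% in shControl. Between 13.4% and 15.4% of the tested genes had a higher RPKM than Lag3 in the knockdown libraries, against 38.6% to 44.7% in the control libraries.

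**Figure D1:**
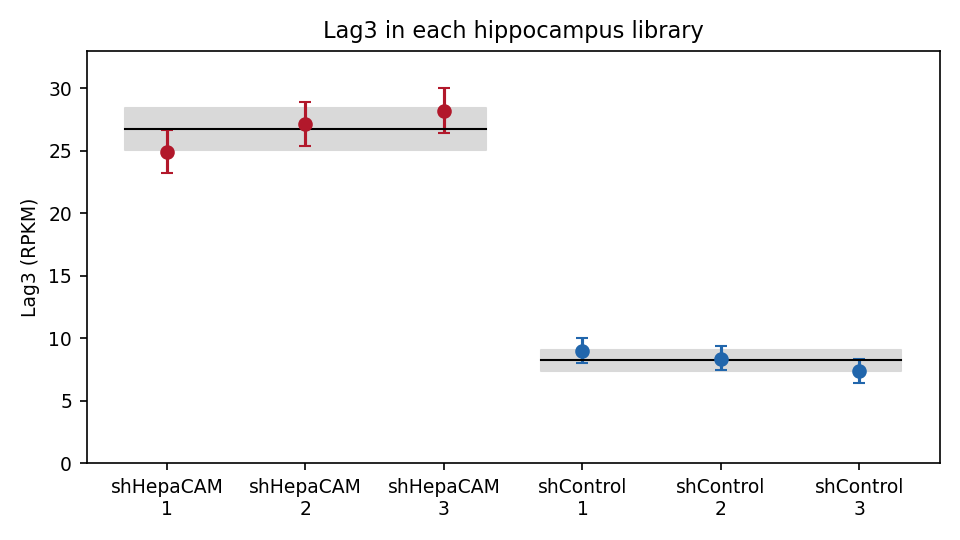
Lag3 in RPKM in each of the 6 libraries; points with bars are values with 95% Poisson intervals on the reads, black lines are group means and grey bands are 1 SD over 3 libraries. The knockdown libraries lie between 24.9 and 28.2 RPKM and the control libraries between 7.35 and 9.01 RPKM.

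Across the transcriptome, limma called 842 of the 13864 tested genes (mean level 1 RPKM or more, Benjamini-Hochberg adjusted p under 0.05), which is 6.07%. Genes called higher in the knockdown libraries made up 4.23% and genes called lower 1.84% of those tested (587 and 255 genes, against 336 and 347 with each library scaled to its median), and the median log2 change of all tested genes was 0.05. The total was 421 when shHepaCAM replicate 2 was left out and 328 when shHepaCAM replicate 3 was. Leaving out shControl replicate 1, 2 or 3 gave totals of 235, 126 and 98. In these terms, 60 genes (0.433%) had a larger log2 rise than Lag3, of which 39 were immunoglobulin gene segments and 17 were protein-coding genes. Hepacam, the targeted gene, had 24.4, 22.6 and 20.9 RPKM in shHepaCAM replicates 1, 2 and 3, against 37.3, 33.4 and 35.9 RPKM in shControl replicates 1, 2 and 3 (limma log2 change -0.63, adjusted p = 0.00924, and 0.0526 without shControl replicate 3). Transcripts of the choroid plexus, a neighbouring tissue, were low in shHepaCAM replicate 3 and shControl replicate 1, where Ttr was at 25.5 and 62.1 RPKM, against 1660 to 4192 RPKM in the other libraries. The log2 difference of Lag3 without both of these libraries was 1.61.

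Transcripts of class II genes were in part higher in the same libraries. Of 11 class II genes, 6 passed the filter, all of them with a control mean of at least 1 RPKM, and 4 of the 6 rose, 0 fell and 2 did not pass the test in limma, against a background of 4.23% called higher. The 4 were the invariant chain Cd74 and the chains H2-Aa, H2-Ab1 and H2-Eb1, with log2 changes of 3.07, 2.48, 2.47 and 2.36 (limma adjusted p = 0.000246, 0.00339, 0.000246 and 0.00314). Each of the 4 kept its call in all 15 alternatives tried. The median over the 6 tested genes was 2.41, beside 0.05 over all tested genes. In the sum over all 11 genes, class II stood at 128 to 162 RPKM in knockdown libraries and at 29.2 to 33.5 RPKM in control libraries.

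Cd74, the chaperone of class II assembly, had 44.1, 60.1 and 46.4 RPKM in shHepaCAM replicates 1, 2 and 3, against 4.43, 5.56 and 5.23 RPKM in shControl replicates 1, 2 and 3. H2-Ab1, the beta chain of the I-A molecule, had 24.4, 26.5 and 21.7 RPKM in the shHepaCAM libraries, against 3.75, 3.94 and 2.99 RPKM in the shControl libraries. In both genes the groups lay far apart and shHepaCAM replicate 2 was highest, whereas Lag3 was highest in shHepaCAM replicate 3. H2-Aa, the alpha chain of I-A, averaged 20.5 ± 3.40 RPKM in shHepaCAM and 2.93 ± 1.05 RPKM in shControl (SD, n = 3 each). H2-Eb1, a beta chain of the I-E family, averaged 27.0 ± 5.41 RPKM in shHepaCAM and 4.46 ± 1.07 RPKM in shControl (SD, n = 3 each). Genes of the H2 family resemble one another in sequence, so single members are uncertain by the reads they may share.

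The genes that load peptides onto class II gave smaller values. H2-DMa, a chain of the peptide exchange factor DM, had 13.05 ± 1.71 RPKM in shHepaCAM and 12.0 ± 1.17 RPKM in shControl (SD, n = 3 each; log2 change 0.11, limma adjusted p = 0.552), and its groups overlapped. H2-DMb1, its partner chain, had 3.98 ± 0.39 RPKM in shHepaCAM and 2.11 ± 0.70 RPKM in shControl (SD, n = 3 each; log2 change 0.71, limma adjusted p = 0.0627). The other 5 genes lay under the filter of 1 RPKM and were not tested. Among them Ciita, the master regulator of class II transcription, had 0.37, 0.66 and 0.42 RPKM in shHepaCAM replicates 1, 2 and 3, against 0.26, 0.18 and 0.36 RPKM in shControl replicates 1, 2 and 3, on 16 to 56 reads a library. H2-DMb2, another DM beta chain, and H2-Oa and H2-Ob, the chains of the DM inhibitor DO, averaged 0.60, 1.02 and 0.64 RPKM in shHepaCAM, against 0.21, 0.30 and 0.31 RPKM in shControl. H2-Eb2, a class II beta chain gene, had 0.06 to 0.22 RPKM in knockdown libraries and was listed at 0 in all control libraries. All 5 of these genes were higher in every knockdown library than in any control library, as were 7.42% of the genes under the filter.

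Lgals3, Fgl1 and Clec4g, genes of other reported ligands, and the protease genes Adam10 and Adam17 did not pass the test or lay under the filter. Lgals3, which encodes galectin-3 and is made by activated microglia, had 7.59, 5.10 and 6.44 RPKM in shHepaCAM and 4.62, 4.22 and 4.44 RPKM in shControl replicates 1, 2 and 3 (log2 change 0.43, limma adjusted p = 0.0939, and 0.0401 without shHepaCAM replicate 2). Fgl1, a secreted protein made mainly by liver, and Clec4g, the gene of LSECtin, were near 0, with 6 and 3 reads over the 3 knockdown libraries and 21 and 3 reads over the 3 control libraries. Adam10 averaged 14.4 ± 0.66 RPKM in shHepaCAM and 14.8 ± 1.09 RPKM in shControl, and Adam17 averaged 3.26 ± 0.15 RPKM in shHepaCAM and 2.92 ± 0.13 RPKM in shControl (SD, n = 3 each; limma adjusted p = 0.777 and 0.4). Of these 2 proteases, 0 passed in limma, 0 had an unadjusted p under 0.05 and 0 passed in limma-voom.

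Single T cell transcripts were present at a lower level than Lag3, at most 3.36 RPKM in any library. The T cell list held 22 genes, of which 18 lay under 1 RPKM in the mean of all libraries. Summed over all 22, the level was 18.2, 21 and 13.9 RPKM in shHepaCAM replicates 1, 2 and 3 and 6.82 to 7.62 RPKM in the control libraries, 2.42 times as high in the mean. Lag3 alone was 1.29 to 2.03 times this sum in knockdown libraries and 0.988 to 1.23 times it in control libraries. Of this sum, Zap70, which did not rise, held 2.70 to 2.76 RPKM in control libraries and 1.41 to 3.36 RPKM in knockdown libraries. Both the ratio of 2.42 and the comparison with Lag3 therefore depend in part on this gene. Cd3e, Cd3d and Cd3g, chains of the signalling complex of every T cell receptor, together had 1.10, 1.82 and 0.95 RPKM in shHepaCAM replicates 1, 2 and 3, against 0.18, 0.26 and 0.15 RPKM in shControl replicates 1, 2 and 3. This sum rested on 49, 87 and 46 reads in the knockdown libraries and on 8, 12 and 7 reads in the control libraries. Its mean was 6.50 times as high in knockdown as in control libraries, against 3.24 times for Lag3. Lag3 stood at 22.7, 14.9 and 29.6 times the summed Cd3 level in shHepaCAM replicates 1, 2 and 3, against 49.4, 32.0 and 48.4 times in shControl replicates 1, 2 and 3, so the ratio was lower in all knockdown libraries. The Cd3 genes were picked for this sum after their values were seen.

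Within the T cell list, 16 of the 18 genes under the filter were higher in every knockdown library than in any control library, beside 7.42% of all genes under the filter. Cd4, the co-receptor of helper T cells, had 0.55, 0.94 and 0.59 RPKM in shHepaCAM replicates 1, 2 and 3, against 0.16, 0.16 and 0.20 RPKM in shControl replicates 1, 2 and 3. Cd8a, a co-receptor chain of cytotoxic T cells, had 0.50, 0.83 and 0.32 RPKM in the shHepaCAM libraries, against 0.27, 0.17 and 0.17 RPKM in the shControl libraries. Both groups of values lay apart, and shHepaCAM replicate 2 was the highest library for both genes. It was the highest knockdown library for 17 of the 22 T cell genes, and shHepaCAM replicate 3, where Lag3 was highest, was the highest for 0 of them. Only 4 T cell genes were tested, and of these only Zap70 had a control mean of at least 1 RPKM, so the others passed the filter through their level in knockdown libraries. Trac and Trbc2 encode constant parts of the alpha and beta receptor chains, and rose by 1.10 and 0.96 (limma adjusted p = 0.0228 and 0.0149), on 30 to 47 and 21 to 24 reads in a knockdown library and on 6 to 16 and 4 to 7 reads in a control library. Trbc2 has a near-identical copy, Trbc1, so reads may be split between them. These 2 calls among 4 tested genes stand beside 4.23% of all tested genes called higher. The 2 calls were 1 without shHepaCAM replicate 2 and 0 without shControl replicate 2 or 3, where 3 genes kept an unadjusted p under 0.05; limma-voom on whole reads gave 2. Trac lost its call in all 3 of these fits (adjusted p of 0.0604 to 0.0947), and Trbc2 without shControl replicate 2 or 3 (0.0585 and 0.0526). Zap70, a kinase of T cell receptor signalling, had 3.36, 1.41 and 1.61 RPKM in shHepaCAM and 2.70, 2.70 and 2.76 RPKM in shControl replicates 1, 2 and 3 (log2 change -0.30, limma adjusted p = 0.435). Without shHepaCAM replicate 1, Zap70 was called lower, with a log2 change of -0.57 (limma adjusted p = 0.0366).

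**Figure D2:**
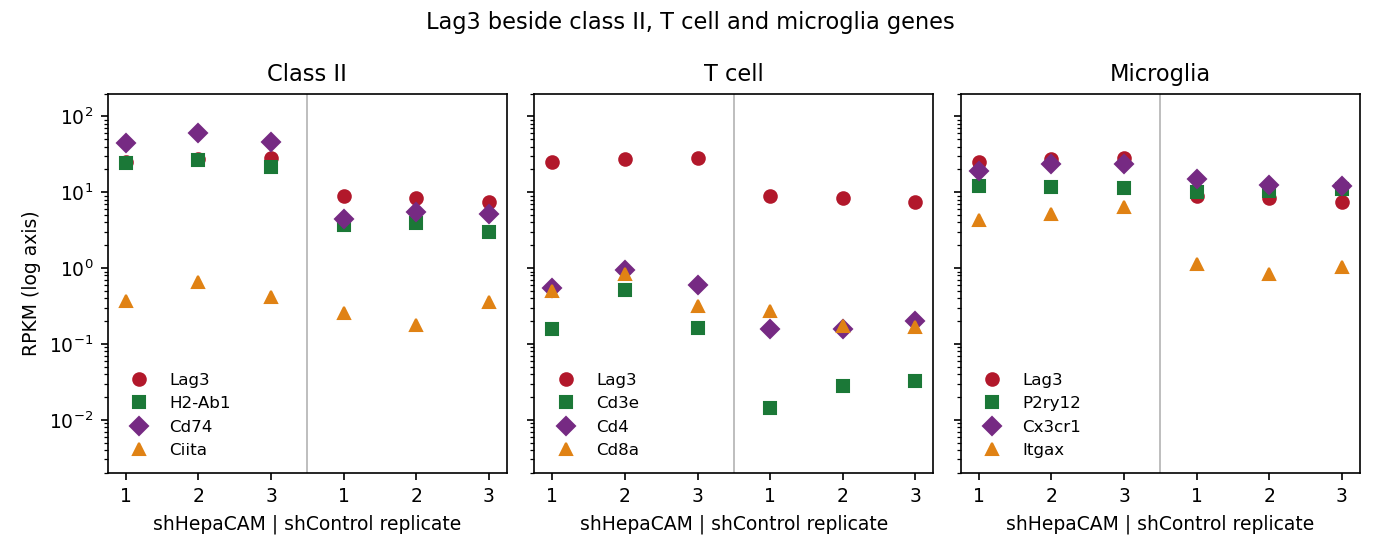
RPKM on a log axis in each library (shHepaCAM replicates left of the line in each panel, shControl replicates right of it) for Lag3 and 3 genes each of class II, T cells and microglia. Lag3 lies far above the 3 T cell genes shown in all libraries, and above P2ry12 and Cx3cr1 in the knockdown libraries but below both in the control libraries.

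Microglia markers of the resting state differed less between the groups than Lag3. Of 12 such genes, 9 were higher in every knockdown library than in any control library, beside 20.9% of all tested genes, and 8 had an unadjusted p under 0.05. P2ry12, a purine receptor of resting microglia, had 12.2, 11.7 and 11.4 RPKM in shHepaCAM replicates 1, 2 and 3, against 10.2, 10.4 and 11.1 RPKM in shControl replicates 1, 2 and 3 (log2 change 0.15, limma adjusted p = 0.209). Lag3 was therefore above P2ry12 in each knockdown library and below it in each control library. Cx3cr1, the fractalkine receptor, had 18.9, 23.7 and 23.8 RPKM in the shHepaCAM libraries, against 14.9, 12.3 and 12.0 RPKM in the shControl libraries, and rose by 0.71 (limma adjusted p = 0.0206). Selplg, a selectin ligand, rose by 0.41 (limma adjusted p = 0.0331). Of the 12 homeostatic genes, all tested, these 2 rose, 0 fell and 10 did not pass, beside 4.23% of all tested genes called higher. Their median was 0.29, beside 0.05 over all genes. Fcrls, an Fc receptor-like gene, was at 0.31 (adjusted p = 0.339). The 2 calls were 1 without shHepaCAM replicate 1 or 2, and 0 without shHepaCAM replicate 3 or shControl replicate 2 or 3, where 5 to 7 genes kept an unadjusted p under 0.05; limma-voom gave 5. Cx3cr1 lost its call without shHepaCAM replicate 2 or 3 or shControl replicate 2 or 3 (adjusted p of 0.0599 to 0.0925), and Selplg without any single library other than shHepaCAM replicate 2 (0.0627 to 0.123). P2ry12 was named after its values were seen.

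Genes shared by microglia and other macrophages rose more widely. Of 14, 13 were tested, 11 rose, 0 fell and 2 did not pass, beside 4.23% of all tested genes called higher. The median was 0.67. Ctss, a protease that trims the class II invariant chain, had 169, 188 and 194 RPKM in shHepaCAM replicates 1, 2 and 3, against 97.9, 89.0 and 85.2 RPKM in shControl replicates 1, 2 and 3, and rose by 1.01 (limma adjusted p = 0.00314). The complement subunits C1qb and C1qc rose by 0.95 and 0.92, the lipid receptor Trem2 by 0.94 and the growth factor receptor Csf1r by 0.51. C1qa, the third C1q chain, averaged 257 ± 44.8 RPKM in shHepaCAM and 127 ± 12.6 RPKM in shControl (SD, n = 3 each; limma adjusted p = 0.0117). The number called was 7 and 6 without shHepaCAM replicates 2 and 3 and 4 and 4 without shControl replicates 2 and 3; C1qa lost its call without shControl replicate 2 or 3 (adjusted p = 0.0585 and 0.0606), and Csf1r lost its call in both of these and without shHepaCAM replicate 2 or 3 (adjusted p of 0.0602 to 0.0927). Summed over the 14 genes, the level was 813 to 996 RPKM in knockdown libraries and 437 to 508 RPKM in control libraries, 1.88 times as high in the mean. In whole tissue, more cells of a type and more RNA per cell cannot be told apart.

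Genes that microglia raise in disease models were changed in part. Of 12 such genes, 11 were tested, 6 rose, 0 fell and 5 did not pass, beside 4.23% of all tested genes called higher. The median was 0.59. Itgax, the integrin CD11c, had 4.25, 5.08 and 6.404 RPKM in shHepaCAM replicates 1, 2 and 3, against 1.12, 0.84 and 1.03 RPKM in shControl replicates 1, 2 and 3, and rose by 1.63 (limma adjusted p = 0.00428); its control mean of 0.998 RPKM lay just under the filter, which it passed through the knockdown libraries. Cst7, a protease inhibitor, had 26.0, 28.0 and 42.9 RPKM in the shHepaCAM libraries, against 9.66, 4.80 and 7.89 RPKM in the shControl libraries, and rose by 1.99 (limma adjusted p = 0.0115, and 0.0526 without shControl replicate 3). In both genes shHepaCAM replicate 3 was the highest library, as for Lag3. Clec7a, the receptor dectin-1, Ccl6, a chemokine, Apoe, a lipid carrier, and Ctsz, a protease, rose by 1.36, 1.07, 0.68 and 0.59 (limma adjusted p = 0.0195, 0.0308, 0.0141 and 0.0308). Cd63, a membrane protein of late endosomes, was at 0.14 (adjusted p = 0.417). Calls numbered 3, 2 and 1 when shControl replicate 1, 2 or 3 was left out; Itgax kept its call in all 14 alternatives that tested it, while Ccl6 lost its call without any 1 of the 6 libraries, with adjusted p-values of 0.0568 to 0.0821. Clec7a lost its call without shHepaCAM replicate 2 and without shControl replicate 2 or 3 (adjusted p of 0.0562 to 0.0665). Apoe and Ctsz lost theirs without any 1 of the 3 control libraries (0.0655 to 0.12).

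**Figure D3:**
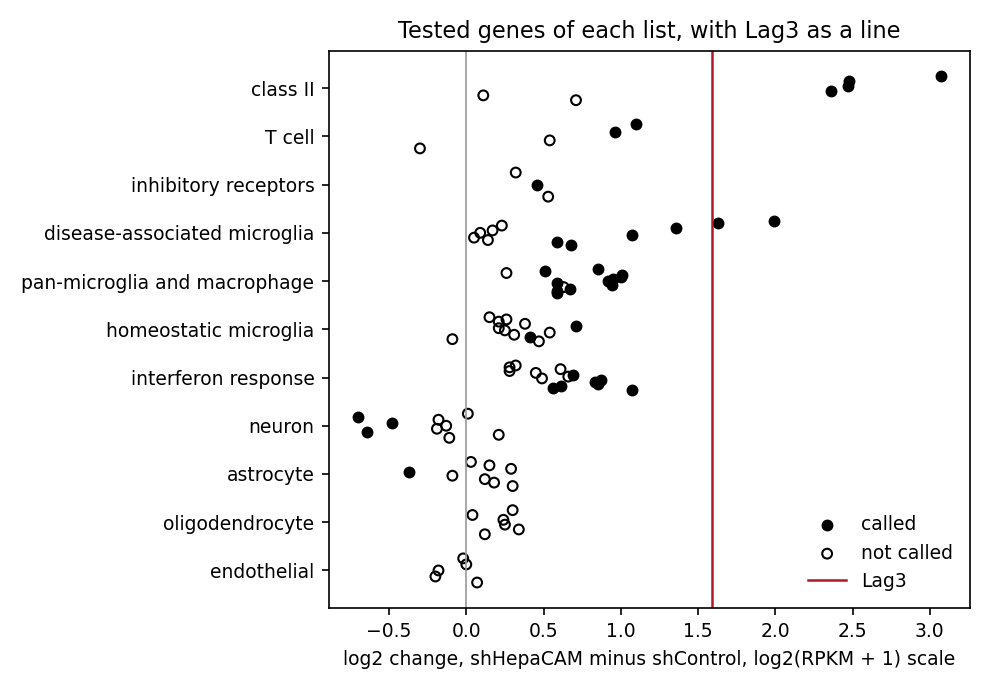
Log2 change (shHepaCAM minus shControl, on the log2(RPKM + 1) scale) of the tested genes of 11 lists; filled points passed an adjusted p of 0.05 in limma and open points did not, and the red line marks Lag3 at 1.59. Only 4 class II genes and the disease-associated genes Itgax and Cst7 lie right of the line among the lists shown. This order depends on the scale for low genes. With a pseudocount of 0.1, the T cell genes Trac and Trbc2 were at 1.87 and 1.75, against 1.69 for Lag3.

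Set against each list within a library, Lag3 kept different distances. On the log2(RPKM + 1) scale it stood 1.31, 1.43 and 1.41 above the mean of the 12 homeostatic microglia genes in shHepaCAM replicates 1, 2 and 3, against 0.21, 0.14 and -0.01 in shControl replicates 1, 2 and 3. Its distance to these markers was thus larger in every knockdown library, by 1.27 in the mean. Against the 13 pan-microglia and macrophage genes the difference was -0.32, -0.20 and -0.40 in the shHepaCAM libraries and -1.16, -1.13 and -1.21 in the shControl libraries. Against the 6 class II genes it was 0.46, 0.38 and 0.71 in the shHepaCAM libraries and 1.05, 0.72 and 0.62 in the shControl libraries, and here the groups overlapped. These distances contain the difference for which Lag3 was chosen and carry no test.

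Of 10 other inhibitory receptors of immune cells, 3 were tested, and their log2 changes of 0.32 to 0.53 were smaller than that of Lag3. Vsir, which encodes the checkpoint protein VISTA and is expressed by microglia and other myeloid cells, had 8.73, 9.10 and 8.58 RPKM in shHepaCAM replicates 1, 2 and 3, against 6.99, 5.76 and 5.70 RPKM in shControl replicates 1, 2 and 3. It rose by 0.46 (limma adjusted p = 0.0308), but only with all libraries or without shControl replicate 1; the adjusted p was 0.0564 to 0.12 without any other single library. Havcr2, which encodes TIM-3, had 2.04, 2.69 and 2.78 RPKM in shHepaCAM and 1.46, 2.03 and 1.95 RPKM in shControl replicates 1, 2 and 3 (log2 change 0.32, limma adjusted p = 0.203). Lair1, a collagen receptor, had 1.74, 2.35 and 2.48 RPKM in shHepaCAM and 1.25, 1.16 and 1.17 RPKM in shControl replicates 1, 2 and 3 (log2 change 0.53, limma adjusted p = 0.0532). Lair1 was called higher without shHepaCAM replicate 1 (0.0332), without the variance trend (0.0436) and in limma-voom (0.0187).

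The inhibitory receptors best known from exhausted T cells were at few reads. Pdcd1, which encodes PD-1, had 14, 44 and 38 reads in shHepaCAM replicates 1, 2 and 3, against 15, 4 and 7 reads in shControl replicates 1, 2 and 3, which in RPKM left the lowest knockdown value (0.459) just above the highest control value (0.454). Ctla4 had 15, 4 and 9 reads in the shHepaCAM libraries, against 4, 0 and 3 reads in the shControl libraries. Tigit had 5, 15 and 10 reads in the shHepaCAM libraries, against 9, 1 and 4 reads in the shControl libraries. The means of Pdcd1, Ctla4 and Cd244a, a receptor of killer and T cells, were 3.76, 4.01 and 5.62 times as high in knockdown as in control libraries. These ratios were above that of Lag3 but on few reads. Their groups did not overlap in RPKM, as for 7.42% of the genes under the filter, which were higher in every knockdown library. Those of Tigit, Btla, Cd160 and Cd200r1 overlapped, at ratios of 2.18, 1.15, 1.02 and 1.325. Btla, Cd160, Cd244a and Cd200r1 lay between 0.00 and 0.45 RPKM in all 6 libraries. The highest value of these 7 genes was 1.41 RPKM, for Pdcd1 in shHepaCAM replicate 2, below the lowest value of Lag3, 7.35 RPKM.

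Of the 6 genes beside Lag3 on chromosome 6, 5 were tested, and Cd4 was under the filter. In the GENCODE M21 annotation, the order of protein-coding genes is P3h3, Gpr162, Cd4, Lag3, Ptms, Mlf2 and Cops7a, and 0 annotated genes overlap Lag3. The nearest neighbours were Cd4, at the values given above, and Ptms, the gene of the nuclear protein parathymosin, at 486, 441 and 456 RPKM in shHepaCAM replicates 1, 2 and 3, against 366, 398 and 386 RPKM in shControl replicates 1, 2 and 3. Ptms had a log2 change of 0.26 (limma adjusted p = 0.0726), and Mlf2, Gpr162, P3h3 and Cops7a had 0.03, 0.04, 0.29 and -0.20 (limma adjusted p = 0.837, 0.78, 0.125 and 0.283). Both nearest neighbours lie on the same strand as Lag3.

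**Figure D4:**
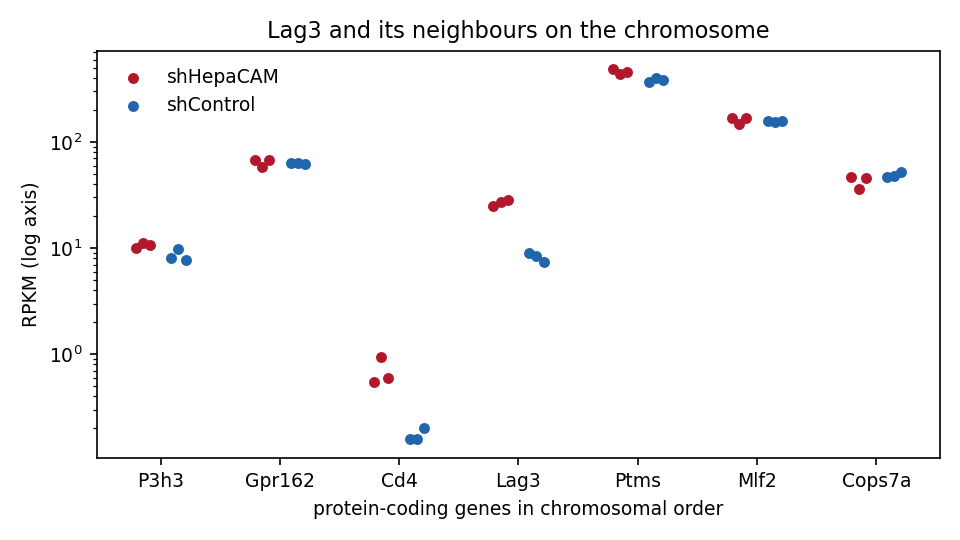
RPKM on a log axis of Lag3 and the 3 protein-coding genes on each side of it, in chromosomal order; each point is 1 library, shHepaCAM left of shControl for each gene. Lag3 and Cd4 show groups far apart, and the groups of the other genes lie close together or overlap.

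The genes whose pattern over the 6 libraries was most like that of Lag3 were named by the root mean square difference between centred log2(RPKM + 1) profiles. Among protein-coding genes with a name other than a predicted one, this measure was smallest for Cd52, a surface glycoprotein of leukocytes (0.114), followed by Kcne1l, a potassium channel subunit gene (0.127), and Itgax (0.134). Hist1h4h, a histone H4 gene (0.156), Lyz2, the lysozyme of macrophages and microglia (0.167), and the class I heavy chains H2-D1 (0.174), H2-K1 (0.205) and H2-Q7 (0.205) came next. The measure was also under 0.2 for H2-Q5 (0.138), AW112010 (0.168) and Iglc1 (0.193), which are annotated as a pseudogene, a noncoding RNA and an immunoglobulin segment. The median over all tested genes was 0.78. Since Lag3 was chosen for its group difference, genes near it by this measure differ between the groups by construction, and no test is given. Cd52 had 12.5, 14.0 and 16.4 RPKM in shHepaCAM replicates 1, 2 and 3, against 5.17, 3.74 and 4.07 RPKM in shControl replicates 1, 2 and 3. Lyz2 had 59.4, 72.7 and 83.01 RPKM in the shHepaCAM libraries, against 29.4, 27.6 and 26.8 RPKM in the shControl libraries. Kcne1l was nearly level within the knockdown group, at 18.6, 19.1 and 18.7 RPKM, against 6.48, 5.04 and 6.09 RPKM in the shControl libraries. With a pseudocount of 0.1 only 3 of these 8 genes remained among the nearest 8, and 4 to 8 remained with single libraries left out, so the set depends on the scale. Reads of the class I chains, of Lyz2 and of histone genes may be shared with close relatives.

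**Figure D5:**
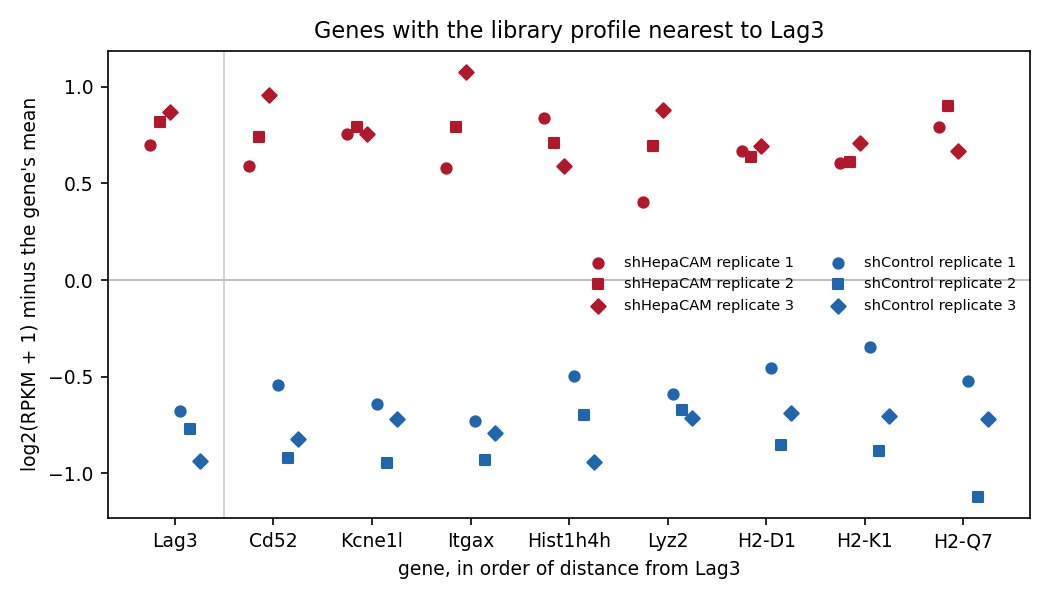
Log2(RPKM + 1) minus each gene's mean over the 6 libraries, for Lag3 and the 8 genes with the nearest profile, in order of distance; each point is 1 library, with colour for the group and shape for the replicate. In shHepaCAM replicate 3 Lag3, Cd52, Itgax, Lyz2, H2-D1 and H2-K1 are at their highest. Kcne1l and H2-Q7 are at their highest in shHepaCAM replicate 2, and Hist1h4h in shHepaCAM replicate 1.

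Markers of other cells that the tissue could hold were read in the same libraries, and their part in the difference of Lag3 was not tested. Of 11 genes of B and plasma cells 4 were tested, of which only Igkc had a control mean of at least 1 RPKM, the others passing the filter through their level in knockdown libraries. Of the 4, 3 rose, beside 4.23% of all tested genes called higher. They were Igkc, Jchain and Mzb1, at 7.74, 4.68 and 2.34 (limma adjusted p = 0.000682, 0.00924 and 0.00924). Without shControl replicate 3 the count was 2, and Mzb1 had 0.0502. The summed level of this list was 511 to 1830 RPKM in knockdown and 3.82 to 7.50 RPKM in control libraries, and shHepaCAM replicate 3 was the highest knockdown library for 9 of 11 genes. Of 10 natural killer and cytotoxic genes found, only the chemokine Ccl5 was tested. It rose by 1.48 (limma adjusted p = 0.0141, and 0.0639 and 0.069 without shControl replicates 2 and 3). The cytotoxic granule genes Nkg7 and Gzmb averaged 1.47 and 0.82 RPKM in shHepaCAM and 0.41 and 0.15 RPKM in shControl. Ncr1 and Klrb1c, which define natural killer cells, had 3 and 0 reads over knockdown libraries and 0 and 2 over control libraries. Klrk1, Klrd1 and Prf1 averaged 0.07, 0.26 and 0.13 RPKM in shHepaCAM and 0.03, 0.10 and 0.01 RPKM in shControl. Gzma and Eomes averaged 0.08 and 0.49 RPKM in shHepaCAM and 0.13 and 0.33 RPKM in shControl. Of the 9 genes under the filter, 3 were higher in every knockdown library than in any control library, beside 7.42% of all genes under the filter. Of 9 border macrophage and monocyte genes, Ly6c2, a monocyte surface gene, was tested, through its level in knockdown libraries alone, and had 2.98, 4.41 and 14.1 RPKM in shHepaCAM and 0.43, 0.25 and 0.44 RPKM in shControl replicates 1, 2 and 3 (log2 change 2.33, limma adjusted p = 0.0317, and 0.0697 to 0.112 without shHepaCAM replicate 2 or any 1 control library). The macrophage genes Ms4a7 and Pf4 averaged 1.03 and 0.84 RPKM in shHepaCAM and 0.32 and 0.53 RPKM in shControl. Pf4 overlapped between the groups, with 0.17 RPKM in shHepaCAM replicate 3. Mrc1, Cd163, Lyve1, F13a1 and Cbr2 also overlapped, at ratios of 1.37, 1.07, 0.83, 0.85 and 0.59. Ms4a7 and Ccr2 (ratio 4.58) did not overlap. They were 2 of 8 genes of this list under the filter, beside 7.42% of all genes under it that were higher in every knockdown library. Of 9 dendritic cell genes only Flt3, a growth factor receptor, was tested, at -0.05 (adjusted p = 0.788, 0 genes with an unadjusted p under 0.05 and 0 called by limma-voom); Zbtb46 and Ly6d averaged 0.67 and 1.22 RPKM in shHepaCAM and 0.77 and 0.08 RPKM in shControl. Of 5 neutrophil genes found, S100a9 and S100a8 were tested, at -0.13 and -0.52 (adjusted p = 0.87 and 0.228, 0 with an unadjusted p under 0.05 and 0 called by limma-voom), and Camp averaged 0.52 RPKM in shHepaCAM and 0.48 RPKM in shControl. The summed levels of the border macrophage, dendritic cell and neutrophil lists were 6.75 to 16.6, 3.79 to 4.83 and 1.37 to 5.53 RPKM in knockdown libraries, against 2.49 to 3.16, 3.04 to 3.36 and 2.99 to 8.57 RPKM in control libraries. The group differences of the border macrophage and dendritic cell sums depend largely on Ly6c2 and Ly6d, at the values given above. The summed level of the natural killer and cytotoxic list was 3.33 times as high in the mean in knockdown as in control libraries. Ccl5 held most of this sum, with means of 8.965 RPKM in shHepaCAM and 2.539 RPKM in shControl.

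Among interferon response genes, 7 of 14 rose and 0 fell, beside 4.23% of all tested genes called higher. The median was 0.61. Irf1, a transcription factor induced by interferon gamma, had 5.30, 5.30 and 4.54 RPKM in shHepaCAM replicates 1, 2 and 3, against 2.79, 2.63 and 2.78 RPKM in shControl replicates 1, 2 and 3, and rose by 0.69 (limma adjusted p = 0.00924, and 0.053 and 0.0526 without shControl replicates 2 and 3). Cxcl10, a chemokine, and Rsad2, an antiviral protein, rose by 1.07 and 0.83 (limma adjusted p = 0.0166 and 0.013), while Ifit3 and Isg15 were at 0.61 and 0.28 (adjusted p = 0.0713 and 0.55). Gbp3, Rtp4 and Usp18 rose by 0.61, 0.56 and 0.87. Without shControl replicate 1, 2 or 3 the list had 3, 2 and 1 calls, and leaving out shHepaCAM replicate 1, 2 or 3 gave 4, 3 and 3. It had 3 calls with each library scaled to its median, and 0, with 11 unadjusted, without both libraries low in choroid plexus genes. Cxcl10 lost its call without shControl replicate 1 or 2 (0.0531 and 0.0513), Rsad2 without shControl replicate 3 (0.0606), Gbp3 in 4 of the 6 fits with a library left out (0.097 to 0.132), and Rtp4 and Usp18 in all 6 (0.0592 to 0.144). None of the 14 rose as far as Lag3 on this scale.

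Markers of the resident cells of nervous tissue showed that the samples held neurons and glia. Of 9 neuronal genes 3 fell and 0 rose, beside 1.84% of all tested genes called lower and 4.23% called higher. The 3 were Slc17a7, the glutamate transporter of synaptic vesicles, Tubb3, a neuronal tubulin, and Snap25, a release protein. They were lower by 0.64, 0.48 and 0.70 (limma adjusted p = 0.0289, 0.0424 and 0.0441). The count was 0 without shHepaCAM replicate 3 or any 1 control library, where 4 to 5 genes kept an unadjusted p under 0.05; Syt1, the calcium sensor of vesicle release, was at -0.18 (adjusted p = 0.287). Of 8 astrocyte genes Slc1a2, the glutamate transporter, fell by 0.37 (limma adjusted p = 0.0181, and 0.0683, 0.0858 and 0.0738 without shControl replicates 1, 2 and 3) and 0 rose; Gfap and S100b were at 0.29 and 0.30 (adjusted p = 0.224 and 0.0651). Of 6 oligodendrocyte, 5 endothelial and 6 choroid plexus genes, 0 passed in limma or in limma-voom, and 1, 0 and 0 had an unadjusted p under 0.05 in limma, with medians of 0.24, -0.02 and -0.72. With shHepaCAM replicate 3 and shControl replicate 1 both dropped, 1 choroid plexus gene was called lower. Abundant genes of these lists were at 0.30 and 0.12 (Mbp and Cldn11), -0.02, -0.20 and -0.18 (Cldn5, Slco1a4 and Flt1) and -1.08, -0.86 and -0.58 (Ttr, Clic6 and Kl), with adjusted p-values between 0.321 and 0.96.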

How the data were processed

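Each library has 1 deposited file of RPKM values made by the authors. The submitters' processing notes name mm39 as the build and list Bowtie2 2.0.6 and TopHat2 2.0.12. How reads were counted, on which annotation and with what strand setting is not stated there. Names, gene order and exon lengths came from GENCODE M21, on another build, so no position is printed; 29805 of 29872 identifiers had a symbol. RPKM values are whole multiples of 1 read's worth, which gave library depths of 15816576 to 16384937 reads (shHepaCAM) and 14903198 to 17341842 reads (shControl); for 91.9% of genes with an annotated length, all 6 values lay within 0.01 of a whole read. For 2101 others (most class II genes, Tigit, Btla and Cd200r1 among them), reads rest on the smallest length that made all values whole, and may be too low by a whole factor.

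Groups were compared by limma 3.58.1 (R 4.3.3, trended variance prior) on log2(RPKM + 1), for genes averaging 1 RPKM or more, Benjamini-Hochberg adjusted at 0.05, without a block. The steps were tested on simulated data. Lag3 and the 19 gene lists were chosen with earlier results of these data known. Named genes are all class II, ligand, protease and inhibitory receptor genes; of other lists up to 6 called genes with the smallest p-values and the 3 of highest level; 3 neighbours on each side; and the 8 nearest profiles; a few genes that this rule names are not reported here. Genes of the Cd3 complex, Cd8a, P2ry12, and the natural killer, cytotoxic and border macrophage genes beyond this rule were named after their values were seen. Alternatives were other scalings, filters, pseudocounts, no trend, a replicate block and leaving out each library. Limma-voom on whole reads and dropping both choroid-plexus-low libraries were added after seeing the data. Figures used matplotlib 3.10.9 in Python 3.11.15.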

Additional observations from a re-analysis of the deposited data

How the results depend on the processing

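Lag3 kept its direction in all 15 alternatives, with log2 differences of 1.51 after median scaling, 1.69 with a pseudocount of 0.1 and 1.52 to 1.65 with single libraries left out. Class II calls stayed at 4 in every alternative. The calls over all genes were 169 with no filter, 157 with the replicate block, 104 without both choroid-plexus-low libraries and 98 to 867 with single libraries left out. In the same order, pan-microglia calls were 5, 4, 6 and 4 to 9, T cell calls 1, 0, 1 and 0 to 3 (1 of the 3 a fall), and homeostatic microglia calls 0, 0, 0 and 0 to 2, where limma still gave at least 3 T cell and 5 homeostatic genes an unadjusted p under 0.05. Homeostatic calls were also 1 with median scaling, quantile normalization or no trend, 4 with a filter of 5 RPKM and 5 with limma-voom; no T cell gene passed that filter, so that alternative gave no value. The causes were not tested. With median scaling, 336 genes were higher and 347 lower, against 587 and 255 on RPKM as deposited. Replicate numbers gave no sign of pairing: same-numbered libraries deviated with correlations of -0.21, 0.0155 and -0.145, and no shHepaCAM library correlated best with its own number. Depth limits the T cell, killer cell and checkpoint genes, many at fewer than 50 reads a library.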
